A study of Mus musculus with 7 samples.

Results

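The 32 genes described here are enterocyte genes of the brush border and of nutrient absorption, measured in sorted Paneth cells (PCs). They were taken as a named list, matched by symbol to the Ensembl identifiers of the deposited count table, and all 32 were found among its 55414 genes. Of these, 11 act in lipid uptake and chylomicron assembly, 4 are disaccharidases, 6 are peptidases, 5 are transporters or a receptor, 2 are other enzymes, 3 build the brush border and 1 (Maf) is a transcription factor.

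PCs are secretory cells filled with granules that sit at the bottom of small intestinal crypts. They were purified with a cell sorter from C57BL/6J mice that had been injected 15 h earlier with TNF, a pro-inflammatory cytokine, or with PBS as the control. The control group comprised 3 libraries (PBS-1 to PBS-3) and the treated group 4 libraries (TNF-1 to TNF-4), and per the series description every library came from another mouse. Both groups share the strain, the sorting step and the time, and no genetic change is named. Age and sex of the mice, dose, sorting markers and gut segment are not stated in the sources used here.

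Enterocytes are the absorptive cells of the intestinal epithelium and carry on their lumenal face the brush border, a dense carpet of microvilli. Enzymes anchored there cut disaccharides and peptides, transporters take up the sugars, amino acids and peptides that are set free, and fatty acids and retinol are bound inside the cell and packed with apolipoproteins into chylomicrons. Most of these genes rise as cells leave the crypt and mature on the villus, whereas PCs stay at the crypt base and make antimicrobial granules.

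Libraries held between 15511455 and 19193721 counts. The labelled cell type was checked against 8 PC markers, whose summed level was 164514 to 263694 counts per 1000000 (CPM) after PBS and 160388 to 287071 CPM after TNF. Lyz1 and Defa24 made most of this sum and were not called, whereas of the other 6 markers Habp2 fell (657 to 274 CPM on average) and Nupr1 (241 to 1356 CPM), Pla2g2a (437 to 1626 CPM) and Mmp7 (3862 to 7113 CPM) rose. CPM values use library sizes after TMM scaling (trimmed mean of M-values), which corrects for differences in library composition. All members together gave 2780, 2800 and 2452 CPM in PBS-1 to PBS-3 and 1813, 1722, 1984 and 1853 CPM in TNF-1 to TNF-4, so that their summed level was lower in every TNF library than in any PBS library (log2 ratio of the means -0.54). Vil1, Cdhr5, Cdhr2, Anpep and Mgam (605, 543, 391, 375 and 310 CPM on average after PBS) made most of this sum. By role, the average sums of the disaccharidases (323 to 799.6 CPM) and of the other enzymes (5.35 to 8.19 CPM) rose, whereas those of the remaining roles were lower. In bulk RNA of a sorted population, fewer cells of a type and less RNA per cell cannot be told apart.

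One library stood apart for these genes, as was known when the genes were chosen. PBS-2 had the highest level of the 3 PBS libraries in 24 of 32 members. Among tested genes it was the highest in 16 of 24 members and in 31.3% of all genes. The ratio of PBS-2 to the mean of PBS-1 and PBS-3 had a median of 1.9 over the members and ran from 0.701 for Mgam to 21.2 for Lct. It exceeded 2 in 16 members, 8 of them among the tested ones, and in 1.98% of all genes tested, which were not matched to the members in level. For this reason results are given with PBS-2 and, where a call or direction of a member depended on it, without it.

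**Figure D1:**
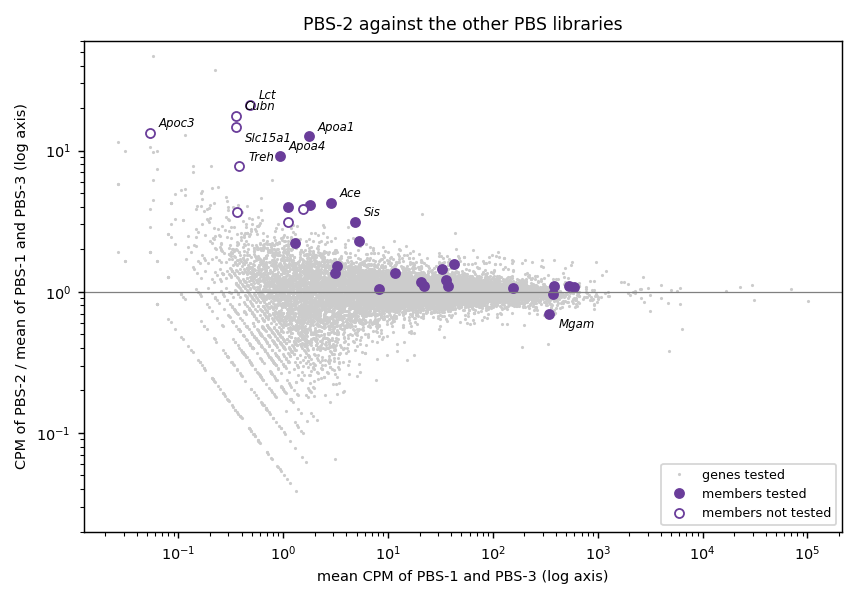
Level of PBS-2 relative to the other PBS libraries (y axis, ratio of CPM, log scale) against the mean CPM of PBS-1 and PBS-3 (x axis, log scale), with tested genes in grey, tested members as filled and untested members as open circles. Most members with low levels lie above the line of equal levels, up to a ratio of 21.2 for Lct, whereas Mgam, at 0.701, lies below it.

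To ask how TNF changed the members, all genes were fitted with the quasi-likelihood test of edgeR and p-values were adjusted over all genes tested (Benjamini-Hochberg). A gene with an adjusted p under 0.05 is called. After the filter on low counts 14329 genes remained, of which 59.6% were called, 30.1% as lower and 29.5% as higher after TNF. The filter kept 24 of 32 members, of which 16 fell (66.7%), 3 rose (12.5%) and 5 were not called. The genes that rose were Mgam, Slc5a1 and Ada, and the genes that were not called were Fabp1, Mogat2, Ace, Mep1b and Maf. The median log2 fold change was -1.27 over the tested members and 0.0017 over all genes tested. Levels of the groups did not overlap in 15 tested members that were lower and 3 that were higher, compared with 30.9% and 29.9% of all genes tested. The 15 include Apoa1, Apoa4, Rbp2 and Sis, whose direction the filter set. Of the 24, Apoa1, Apoa4, Rbp2 and Sis passed the filter with fewer than 3 TNF libraries at its level and had to be lower after TNF. The other 20 had 12 lower, 3 higher and 5 uncalled genes and a median of -1.17. Without PBS-2, 15 members were lower, Apoa1, Apoa4, Rbp2 and Sis included, 4 were higher and 5 were not called, and the median was -1.12. Of all genes tested in that fit, 25.6% were lower and 26.2% higher.

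**Figure D2:**
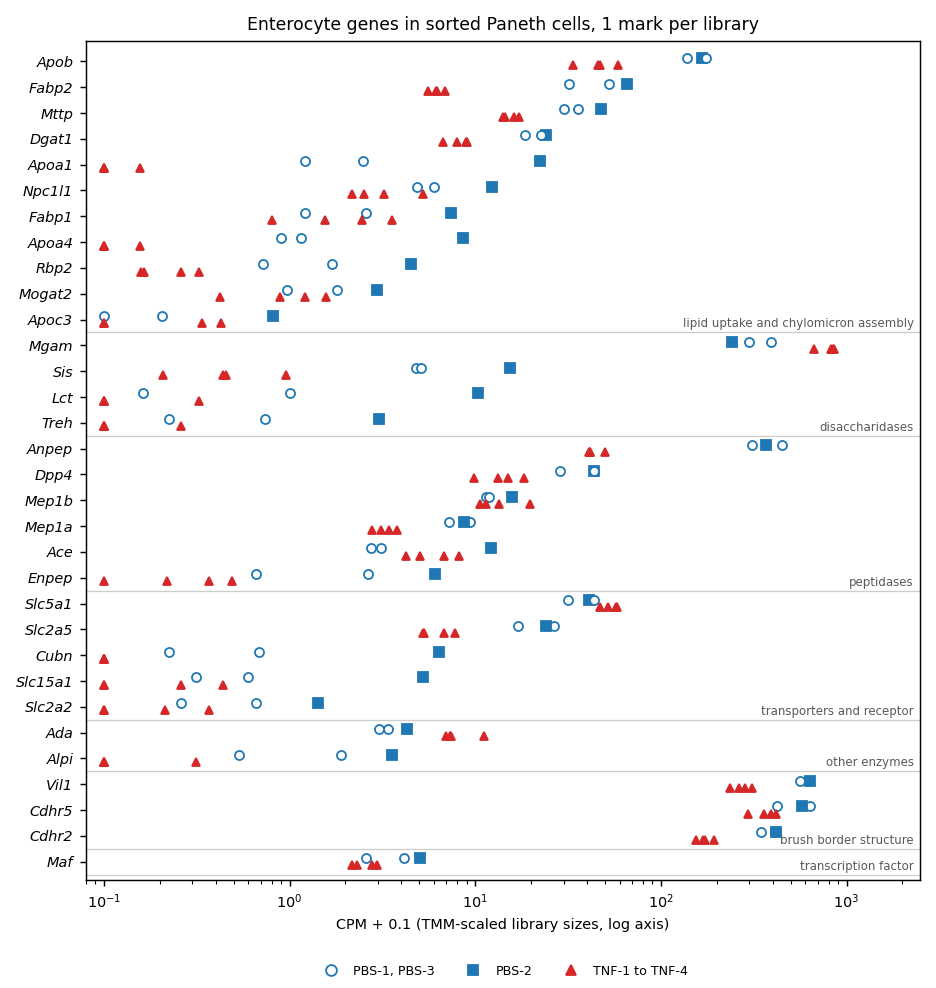
Level of each of the 32 members in each library (x axis, CPM plus 0.1, log scale), grouped by role, with open circles for PBS-1 and PBS-3, squares for PBS-2 and triangles for the 4 TNF libraries. Triangles lie to the left of the PBS marks for most members, to their right for Mgam, Slc5a1 and Ada, and among them for Ace, Mep1b and Fabp1.

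Lipid genes formed the largest group. Of 10 tested members 8 fell and 2 were not called, but the fall of Apoa1, Apoa4 and Rbp2 was set by how they passed the filter. Of the other 7, 5 fell and 2 were not called, with a median log2 fold change of -1.29, and 30.1% of all genes tested were lower. Apob, the structural apolipoprotein of chylomicrons, had the highest CPM of them, although per kb of exon Fabp2 was higher (51.8 against 11.4 CPM per kb after PBS). Apob stood at 138, 166 and 175 CPM in PBS-1 to PBS-3 and at 58.8, 33.4, 47.1 and 45.5 CPM in TNF-1 to TNF-4. All TNF libraries lay well below the PBS libraries, and the level was 3.45-fold lower (log2 fold change -1.79 ± 0.16 (SE), edgeR adjusted p = 8.11e-07). Fabp2, the intestinal fatty acid-binding protein, measured 52.4, 65.6 and 32 CPM after PBS and 6.1, 5.48, 6.05 and 6.81 CPM after TNF. The TNF libraries were close to each other and separate from the PBS libraries, which spread more, and Fabp2 was 8.19-fold lower (-3.03 ± 0.21, edgeR adjusted p = 8.79e-08). Mttp, the transfer protein that loads lipid onto Apob, fell from 37.6 ± 8.74 (SD, n = 3) to 15.4 ± 1.48 CPM (SD, n = 4). Dgat1, an enzyme of triglyceride synthesis, fell from 21.6 ± 2.85 to 8.06 ± 1.07 CPM (SD). For both, the groups did not overlap and the log2 fold changes were -1.29 ± 0.16 and -1.42 ± 0.16 (SE).

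Apoa1 and Apoa4, apolipoproteins that chylomicrons carry, lie beside each other on chromosome 9 (46139878 to 46154757 in GRCm39) with Apoc3 between them. Apoa1 had 1.11, 22.1 and 2.39 CPM after PBS, and after TNF 0.056 CPM in TNF-1 and 0 in the others. This amounted to 497 counts after PBS and 1 count after TNF. Divided by the summed TMM-scaled library sizes of each group, the ratio was 625, with a 95% exact interval of 112 to 24744 that covers counting error only. All ratios of counts below are scaled in this way. Most of the PBS counts came from PBS-2, and without that library 63 counts stood against 1 (ratio 124, interval 21.4 to 4962). Apoa4 had 1.05, 8.5 and 0.795 CPM after PBS, and likewise 0.056 CPM in TNF-1 and 0 in the other TNF libraries. Its counts were 199 and 1 (ratio 250.3, interval 44.4 to 9937), or 32 and 1 without PBS-2 (62.8, interval 10.5 to 2558). Both genes were called lower by edgeR (adjusted p = 0.00239 and 0.000174) and both also without PBS-2. Since both passed the filter through the PBS libraries, which fixed their direction, these calls are a description. The edgeR fit over all libraries gave Apoa1 -8.63 on the log2 scale, which rests on the single count in TNF-1. Once that library was left out, no TNF count of Apoa1 remained, so the fitted -10.24 is not a measured fold. The call of Apoa1 was then lost (edgeR adjusted p = 0.133). Over all alternatives its adjusted p ranged from 4.78e-06 to 0.133. Apoc3 did not pass the filter and was at or below 0.713 CPM in every library, with 16 counts after PBS and 9 after TNF. It was not called without a filter (edgeR adjusted p = 0.549) or in the test of DESeq2 (adjusted p = 0.67).

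Rbp2, which binds retinol in enterocytes, had 0.618, 4.43 and 1.59 CPM after PBS and between 0.0589 and 0.224 CPM after TNF. Rbp2 passed the filter through the PBS libraries, which fixed its direction. Its call as lower (-4.03 ± 0.76 (SE), edgeR adjusted p = 0.000406) is therefore a description, and the log2 fold change was -3.03 without PBS-2. Npc1l1, the cholesterol importer of the brush border, had 4.76, 12.2 and 5.89 CPM after PBS and 5.15, 2.06, 3.11 and 2.42 CPM after TNF. TNF-1 lay within the range of the PBS libraries. Npc1l1 was called lower with all libraries (-1.26 ± 0.38, edgeR adjusted p = 0.0109) but not without PBS-2 (-0.74, adjusted p = 0.131, within a range of 8.63e-05 to 0.131 over the alternatives). Fabp1, a fatty acid-binding protein shared with the liver, was at 2.47, 7.33 and 1.11 CPM after PBS and at 1.46, 0.707, 3.48 and 2.36 CPM after TNF. Its groups overlapped, it was not called (-0.86 ± 0.62, edgeR adjusted p = 0.251), and without PBS-2 the sign turned (0.17). Mogat2, which re-forms diglycerides from absorbed fat, was not called either (1.8 ± 0.997 and 0.923 ± 0.49 CPM (SD)).

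Of the disaccharidases, Mgam rose, whereas Sis was lower after TNF but passed the filter through the PBS libraries, which fixed its direction. Mgam (maltase-glucoamylase, chromosome 6, 40605765 to 40746057 in GRCm39) and Sis (sucrase-isomaltase, chromosome 3, 72795890 to 72875196) encode related enzymes that split starch fragments, and Sis also splits sucrose. Mgam stood at 297, 241 and 392 CPM after PBS and at 860.4, 670.2, 825 and 841 CPM after TNF. Every TNF library was above every PBS library, and PBS-2 had the lowest level. Mgam was 2.58-fold higher (1.37 ± 0.16 (SE), edgeR adjusted p = 7.38e-06), and 1.22 on the log2 scale without PBS-2. A near copy, the pseudogene Mgam2-ps, was at 18.2 CPM after PBS and 20 CPM after TNF, and no source used here says how reads that match both were counted.

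Sis measured 4.7, 15.2 and 4.98 CPM after PBS and 0.336, 0.354, 0.107 and 0.851 CPM after TNF. It was low in all libraries compared with Mgam, at 1.11 against 25.6 CPM per kb of exon after PBS, and lower in every TNF library than in any PBS library. Given that it passed the filter through the PBS libraries, its fold of 20.5 (-4.36 ± 0.58 (SE), edgeR adjusted p = 3e-05) is a description. The log2 fold change was -3.56 without PBS-2 and -4.96 without TNF-4, the TNF library with the highest value. Lct, the lactase, did not pass the filter and had 10.2 CPM in PBS-2, 0.0618 and 0.901 CPM in PBS-1 and PBS-3, and at most 0.224 CPM after TNF. Treh, the trehalase, did not pass it either, with 72 counts after PBS and 3 after TNF (ratio 30.2, 95% exact interval 9.93 to 149.8). Without PBS-2 its counts were 14 and 3, and the ratio was 9.16 (2.56 to 49.7).

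The promoter windows of Sis and Mgam are printed because these related genes differed in their values as given above, and that of Anpep because this peptidase was the most abundant peptidase and fell. Windows run from 250 bases before to 50 bases after the annotated start, 5′ to 3′ on the strand of the gene, and are from RefSeq on GRCm38.p6. They lie at chr3:72967814-72968113 (Sis, minus strand), chr6:40628581-40628880 (Mgam, plus strand) and chr7:79848161-79848460 (Anpep, minus strand). Capitals mark matches to 5 motifs, searched on both strands.
Sis: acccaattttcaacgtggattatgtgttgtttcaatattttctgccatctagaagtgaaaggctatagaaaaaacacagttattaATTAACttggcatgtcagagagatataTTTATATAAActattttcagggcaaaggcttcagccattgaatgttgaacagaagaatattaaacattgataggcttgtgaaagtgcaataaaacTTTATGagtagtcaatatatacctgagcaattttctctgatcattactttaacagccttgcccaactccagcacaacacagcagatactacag
Mgam: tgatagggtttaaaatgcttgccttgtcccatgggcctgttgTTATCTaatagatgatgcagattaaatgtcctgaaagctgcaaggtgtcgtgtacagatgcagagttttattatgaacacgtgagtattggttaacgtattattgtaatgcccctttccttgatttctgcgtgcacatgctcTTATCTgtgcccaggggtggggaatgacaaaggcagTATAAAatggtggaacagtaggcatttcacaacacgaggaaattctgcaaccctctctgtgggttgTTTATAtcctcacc
Anpep: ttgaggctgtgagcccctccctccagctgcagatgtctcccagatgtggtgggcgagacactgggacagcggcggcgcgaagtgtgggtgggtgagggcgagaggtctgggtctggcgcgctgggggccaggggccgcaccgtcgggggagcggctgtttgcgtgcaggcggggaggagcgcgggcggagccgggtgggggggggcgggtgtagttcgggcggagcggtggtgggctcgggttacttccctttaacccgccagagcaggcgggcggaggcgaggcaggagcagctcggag
In the Sis window an HNF1 match (GTTAAT) began 165 bases and a CDX match (TTTATG) 43 bases before the start, and matches to the TATA box (TATAAA) on opposite strands, which overlap, began 138 and 134 bases before it. In the Mgam window GATA matches (AGATAA) began 208 and 66 bases before the start, and a TATA match 30 bases before it, with a further TATA match after the start. The Anpep window held no match to these motifs or to HNF4 (CAAAGTCCA). It was rich in G and C, at 72.3%, compared with 34.0% for Sis and 43.0% for Mgam. Of the 32 members, 27 had at least 1 window, and Apoc3, Dgat1, Maf, Mep1b and Mogat2 are named only. HNF4 was matched in 2 of these 27 members (beside 0.475% of 32851 windows of all genes), HNF1 in 4 (7.1%), CDX in 5 (11.9%), GATA in 4 (11.2%) and TATA in 9 (13.6%). A match describes the letters of a window and does not show binding.

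Among the peptidases 3 of 5 tested members fell and 2 were not called, where 30.1% of all genes tested were lower. Anpep, aminopeptidase N, which trims peptides at the brush border (chromosome 7, 79471551 to 79510807 in GRCm39), was at 448, 367 and 309 CPM after PBS and at 41.3, 41, 41.6 and 49.7 CPM after TNF. The TNF libraries were nearly equal and far below the PBS libraries, among which PBS-2 was in the middle. Anpep was 8.63-fold lower (-3.11 ± 0.14 (SE), edgeR adjusted p = 6.21e-10, and -3.12 without PBS-2). Dpp4, which removes dipeptides from peptide ends, measured 28.6, 43.4 and 43.4 CPM after PBS and 14.9, 13.1, 18.3 and 9.69 CPM after TNF. Its groups did not overlap, and it was 2.74-fold lower (-1.45 ± 0.20, edgeR adjusted p = 4.67e-05).

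The meprin subunits, which form metalloproteases of the brush border, differed from each other in their values. Mep1a fell from 8.35 ± 1.1 (SD, n = 3) to 3.18 ± 0.438 CPM (SD, n = 4), with a log2 fold change of -1.39 ± 0.23 (SE). Mep1b stood at 13 ± 2.36 and 13.7 ± 4.14 CPM (SD) and was not called (0.08 ± 0.22, edgeR adjusted p = 0.772). The difference between the changes of both subunits was not tested. Ace, the angiotensin-converting enzyme, was chosen for display after its values were seen. It had 2.66, 12.1 and 3.02 CPM after PBS and 4.14, 4.95, 6.69 and 8.05 CPM after TNF. PBS-2 was above all TNF libraries, whereas PBS-1 and PBS-3 were below them. Ace was not called with all libraries (log2 fold change 0.00 ± 0.49, edgeR adjusted p = 0.995) and was called higher without PBS-2 (1.07, adjusted p = 0.0215, within a range of 0.0215 to 0.997 over the alternatives). Enpep, the aminopeptidase A, did not pass the filter, with 0.556 to 6.01 CPM after PBS and at most 0.392 CPM after TNF.

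Of the transporters, only Slc5a1 and Slc2a5 passed the filter. Slc5a1, which takes up glucose together with sodium, was at 31.6, 41 and 43.7 CPM after PBS and at 51.8, 46.9, 57.3 and 58.1 CPM after TNF. All TNF libraries lay above the PBS libraries, by a small margin for TNF-2. It was 1.38-fold higher (0.46 ± 0.13 (SE), edgeR adjusted p = 0.00714). Scaled by total counts alone, which shifted the median of all genes by about -0.16 on the log2 scale, Slc5a1 was not called (0.28, adjusted p = 0.235, within a range of 0.00112 to 0.235 over the alternatives). Slc2a5, the fructose transporter of the brush border, stood at 26.6, 24.1 and 17 CPM after PBS and at 5.2, 6.66, 5.14 and 7.66 CPM after TNF. It was 3.66-fold lower with no overlap between groups (-1.87 ± 0.20, edgeR adjusted p = 2.6e-06).

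Slc2a2, the basolateral sugar transporter, Slc15a1, the peptide transporter, and Cubn, the receptor for vitamin B12 bound to intrinsic factor, stayed below the filter. Cubn had 0.124, 6.26 and 0.583 CPM after PBS and 0 counts in every TNF library. Against a floor of 3 counts over the TNF group, and scaled by library sizes, its 136 PBS counts gave a level at least 57-fold higher, and its 13 counts without PBS-2 one at least 8.51-fold higher. Slc15a1 had 5.14 CPM in PBS-2 and at most 0.494 CPM in any other library. Slc2a2 was at 0.159 to 1.32 CPM after PBS and at most 0.268 CPM after TNF.

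The other enzymes were Alpi and Ada. Alpi, the intestinal alkaline phosphatase of mature villus enterocytes, had 0.433, 3.46 and 1.8 CPM after PBS, and after TNF 0.214 CPM in TNF-3 and 0 in the others. It did not pass the filter. Ada, adenosine deaminase, was at 3.28, 4.17 and 2.92 CPM after PBS and at 6.88, 7.25, 7.28 and 11.1 CPM after TNF. Each TNF library was above each PBS library, and Ada was 2.34-fold higher (1.23 ± 0.26 (SE), edgeR adjusted p = 0.000948).

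Genes of brush border structure had the highest levels of the members per kb of exon after PBS, at 198 CPM per kb for Cdhr5, 125 for Vil1 and 94.7 for Cdhr2, followed by Anpep at 90.3. All of these fell after TNF, where 30.1% of all genes tested were lower. Vil1, villin, which bundles the actin of microvilli, measured 617, 637 and 562 CPM after PBS and 265, 283, 308 and 235 CPM after TNF. The groups were well apart (2.22-fold lower, -1.15 ± 0.12 (SE), edgeR adjusted p = 1.65e-06). Cdhr5, one of the cadherins that link the tips of microvilli, was at 632, 573 and 423 CPM after PBS and at 295, 391, 418 and 358 CPM after TNF. TNF-3 lay just below PBS-3, and the fall was smaller (1.48-fold, -0.57 ± 0.15, edgeR adjusted p = 0.00511). Cdhr2, its partner, fell from 391 ± 40.8 (SD, n = 3) to 172 ± 15.3 CPM (SD, n = 4), or 2.28-fold. In this group PBS-2 was only 1.08 to 1.10 times the mean of the other PBS libraries. Maf, a transcription factor of villus enterocytes, had 2.47, 4.94 and 4.03 CPM after PBS and 2.69, 2.06, 2.84 and 2.22 CPM after TNF. Its groups overlapped and it was not called (-0.64 ± 0.33, edgeR adjusted p = 0.112).

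**Figure D3:**
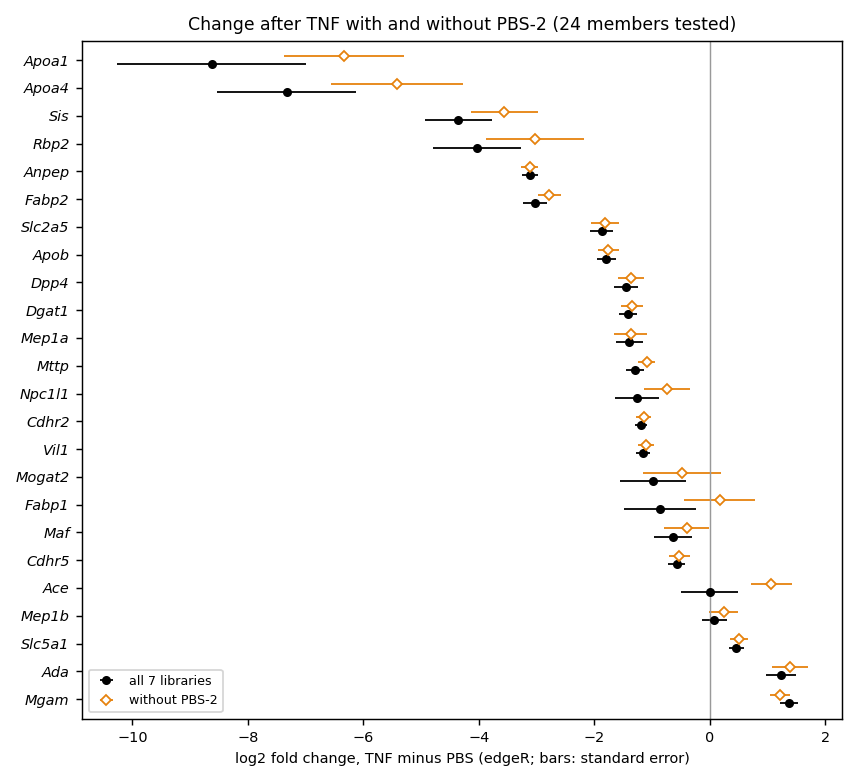
Log2 fold change (TNF minus PBS, x axis) of the 24 tested members in the edgeR fit, with bars of 1 standard error, for all 7 libraries (black) and without PBS-2 (orange). The 16 members called lower run from Apoa1 at -8.63 to Cdhr5 at -0.57, and leaving out PBS-2 moved Apoa1, Apoa4, Rbp2, Sis, Fabp1 and Ace the most.

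Members were also divided by their level in PBS-1 and PBS-3. These libraries are the denominator of the PBS-2 ratio too, so a link between level and ratio is in part built in. They are also part of the PBS group, so a limit on their level favours members that are lower after TNF. The calls by level are therefore a description. With a limit of 10 CPM in both PBS-1 and PBS-3, chosen after the values were seen, 13 members were above it: Apob, Fabp2, Mttp, Dgat1, Mgam, Anpep, Dpp4, Mep1b, Slc5a1, Slc2a5, Vil1, Cdhr2 and Cdhr5. In these the ratio of PBS-2 to the other PBS libraries had a median of 1.1 (range 0.701 to 1.56). With and without PBS-2, 10 of them were called lower, 2 were called higher and 1 was not called, with medians of -1.29 and -1.14. Of all genes tested, which were not limited by level, 30.1% were lower and 29.5% higher with PBS-2, and 25.6% and 26.2% without it. In the other 19 members the PBS-2 ratio had a median of 4.01 (range 1.04 to 21.2), with Mep1a at 1.04, Ada at 1.35 and Maf at 1.52, and their summed level was 35.7, 139 and 42.5 CPM after PBS and 23 to 31.5 CPM after TNF. Of these 19, 11 were tested, and 4 of them (Apoa1, Apoa4, Rbp2 and Sis) had to be lower to pass the filter. Of the other 7, 2 were lower, 1 was higher and 4 were not called, and without PBS-2 these numbers were 1, 2 and 4. Their median moved from -0.86 to -0.40. All 8 untested members had a higher mean after PBS than after TNF, at up to 10.2 CPM in a PBS library and 0.392 CPM in a TNF library.

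Markers of other epithelial cells were summed in the same libraries, since a sort can hold them. The 6 goblet cell markers gave 10434 to 19241 CPM after PBS and 8770 to 9839 CPM after TNF, and the 5 stem cell markers 2546 to 3693 and 998 to 1627 CPM. For tuft cells (6 markers) the sums were 1517 to 2525 and 304 to 765 CPM, and for enteroendocrine cells (7 markers) 45.8 to 117 and 18.2 to 32.2 CPM. All 6 tuft markers were called lower, and 5 without PBS-2, beside 30.1% and 25.6% of all genes tested. Leaving out markers whose direction the filter favoured, 3 of 5 goblet, 4 of 4 stem cell and 2 of 3 enteroendocrine markers were called lower. All of these sums were lower in every TNF library than in any PBS library, as was that of the members, although within the goblet list Muc2 (5367 and 5870 CPM on average after PBS and TNF) and Spink4 (4427 and 3239 CPM) were not called and Fcgbp fell from 2892 to 58.9 CPM. PBS-2 exceeded the mean of the other PBS libraries in the tuft sum (1.58 times), the leukocyte sum (1.32 times) and the enteroendocrine sum (1.27 times, with PBS-1 higher still), and was below it in the goblet (0.692) and stem cell sums (0.917). Leukocyte markers (7) gave at most 32.3 CPM with Cd3e at 0, and of them Ptprc was at 11.4, 26.2 and 11.6 CPM after PBS and called lower (edgeR adjusted p = 0.027), but not without PBS-2 (0.211). Pancreatic acinar markers (6) gave at most 4.66 CPM with Cela2a, Pnlip, Cpa1 and Cpb1 at 0. Stromal and endothelial markers (5) gave 2.29 to 2.72 CPM after PBS and 7.98 to 9.96 CPM after TNF, of which Vwf alone made 2.3 and 8.53 CPM on average, while the other 4 were at most at 0.392 CPM in any library. Erythroid markers (4) gave at most 0.236 CPM with Hba-a1 and Hbb-bs at 0. The part of these cell types in the changes of the members was not tested.

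The remaining genes of the same functions were read from lists, whose counts stand beside 30.1% lower and 29.5% higher among all genes tested (25.6% and 26.2% without PBS-2). Counted are the genes that reached the filter level in at least 3 libraries of both groups, since the direction of the others was favoured by the filter. Of 17 genes of brush border machinery 15 were counted, of which 7 fell, 5 rose and 3 were not called (median -0.25), with 7 lower and 4 higher without PBS-2. Baiap2l2 (-2.42 ± 0.17 (SE)) and Eps8l2 (-1.26 ± 0.11), which shape microvilli and their actin, fell most clearly. In contrast, Ezr, which ties the membrane to actin, rose from 228 ± 25.7 to 544 ± 66.6 CPM (SD), and Myo1d, a microvillar myosin, from 175 ± 19.2 to 347 ± 16.3 CPM. Of 17 further lipid genes 15 were counted, with 3 lower, 4 higher and 8 uncalled genes (median 0.05). Tm6sf2 (-2.12 ± 0.33) and Acsl3 (-0.51 ± 0.15) fell, whereas Pla2g12b (2.33 ± 0.22) and Apobec1, the enzyme that edits the Apob mRNA (1.41 ± 0.18), rose. Apob itself fell, as described above.

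Of 10 other digestive enzymes 9 were found, 5 were tested and 3 counted, with 2 lower and 1 higher. Mme, neprilysin, which passed the filter through the PBS libraries and is not counted, was at 11.9 ± 2.8 CPM after PBS and 0.186 ± 0.224 CPM after TNF (SD). Xpnpep2, an aminopeptidase, fell from 8.06 ± 2.05 to 1.35 ± 0.643 CPM (SD), while Naaladl1, a peptidase, rose (0.58 ± 0.23 (SE), edgeR adjusted p = 0.0465). Of 24 further absorptive transporters 17 were tested and 14 counted, with 8 lower, 3 higher and 3 uncalled genes (median -0.44). Without PBS-2, 7 were lower and 3 higher (median -0.49), and Slc40a1, the iron exporter, was no longer called. Of those not counted, Slc34a2, a phosphate importer, had 8.35 CPM in PBS-2 and at most 1.4 CPM in any other library. Its log2 fold change turned from -1.61 (edgeR adjusted p = 0.229) to 2.05 without PBS-2 (0.0459). The call as higher without PBS-2 is a description, as PBS-1 and PBS-3 were at only 0.185 and 0.265 CPM. Cybrd1, the ferric reductase of the proximal brush border, fell from 119 ± 20.9 to 26 ± 5.55 CPM (SD), and Slc7a8, an amino acid exchanger, from 17.1 ± 1.76 to 5.02 ± 1.19 CPM. Slc11a2, which imports iron, rose from 29.5 ± 1.42 to 71.1 ± 10.3 CPM, and Slc1a1, which imports glutamate, from 11.9 ± 3.74 to 47.9 ± 4.87 CPM. The 4 ileal genes of bile acid handling had low counts. Slc51b, a subunit of the basolateral exporter, was the only one tested, having passed the filter through the TNF libraries, and was at 0.404 ± 0.356 CPM after PBS and 4.01 ± 0.315 CPM after TNF (SD). Its log2 fold change was 3.26 ± 0.51 (SE), and 4.28 without PBS-2. Slc10a2, the apical importer, had 0 counts in all PBS libraries and 34 counts over the 4 TNF libraries. Slc51a, the partner of Slc51b, had 27 and 0 counts and Fabp6, a bile acid-binding protein, 39 and 2, but without PBS-2 only 3 and 6 PBS counts remained.

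Among 24 transcription factors of enterocytes 22 were counted in the same way, of which 11 fell, 6 rose and 5 were not called. The median was -0.18, and -0.14 without PBS-2, where 9 were lower and 6 higher. Gata4, a factor of the proximal intestine, fell from 62.7 ± 3.88 to 8.21 ± 1.76 CPM (SD), and Vdr, the vitamin D receptor, from 151 ± 20.6 to 25.5 ± 5.51 CPM. Prdm1, a repressor that marks the immature epithelium, rose from 1.61 ± 0.637 to 20.5 ± 5.45 CPM, and Klf5, a factor of crypt cells, from 247 ± 20.2 to 533 ± 28 CPM.

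**Figure D4:**
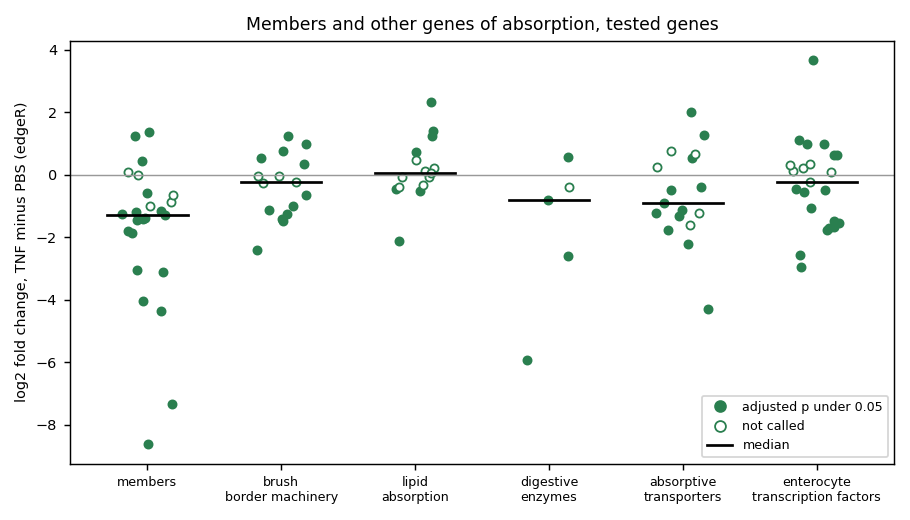
Log2 fold change (TNF minus PBS, y axis) of the tested genes among the members and among 5 lists of other enterocyte genes, with filled circles for called genes, open circles for others and a bar at the median. Medians over all tested genes, also those whose direction the filter favoured, are -1.27 for the members, -0.24 for brush border machinery, 0.05 for lipid absorption, -0.81 for digestive enzymes, -0.91 for transporters and -0.24 for transcription factors.

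Some members share exon bases with a gene on the opposite strand, and no source used here says whether counting used strand. Dgat1 shares 54.6% of its exon bases with Hsf1, which was at 25.2 CPM after PBS and 26.8 CPM after TNF. Vil1 shares 26.1% with Usp37 (39.8 and 38.2 CPM), and Ada shares 20.2% with Pkig (13.8 and 11.4 CPM). Mttp shares 10.9% with Trmt10a, which rose from 5.9 to 17.9 CPM while Mttp fell. Values of these genes are therefore less certain than those of the other members.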

How the data were processed

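Raw read counts per gene and library, as deposited by the authors, were used. The submitters' processing notes name FastQC, Trimmomatic 0.39, STAR 2.7.10a and DESeq2, and the builds mm10 and mm39. What each was used for, the counting program, the annotation and strand handling are not stated in the sources used here. Gene names and GRCm39 coordinates were taken from GENCODE M39 (98.8% of identifiers matched).

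Counts were tested in R 4.3.3 with edgeR 4.0.16 (robust quasi-likelihood fit, two-sided, TMM, filterByExpr, no covariate), TNF against PBS over 7 libraries. For 1 to 3 counts, exact binomial (Clopper-Pearson) intervals are given, and for 0 counts a floor of 3. No libraries of a group were identical within sampling noise. Scripts were tested on simulated data.

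The members and lists were chosen with earlier results of these data known. All members are named. Values per library are given for the 2 members of each role with the highest mean CPM, those that rose and those whose call was lost without PBS-2. From each list, up to 2 called genes per direction with the smallest adjusted p are named. Ace, Slc10a2, Slc51a, Fabp6, Slc40a1, Slc34a2 and single markers of cell types, and the per-library values of Apoa1, Apoa4, Rbp2, Fabp1, Lct and Cubn, were added after their values were seen. Alternatives were other scalings, filters, the test of DESeq2 1.42.0, a replicate block and leaving out each library. No date or batch is given, so none was examined. The value of 1 leukocyte marker is not reported here.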

Additional observations from a re-analysis of the deposited data

Results flagged for a closer look

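In groups of 4 libraries, 5 of 34 values tested had a library far from the others by Dixon's criterion, which chance alone passes in about 1 of 20 groups. These 5 are not independent, since 1 count against 0 in the others always passes and a sum repeats its main gene. Apoa1 and Apoa4 had 0.056 CPM in TNF-1, which is 1 count each, and 0 in the other TNF libraries. Anpep was at 49.7 CPM in TNF-4, above the 41 to 41.6 CPM of the other TNF libraries. Ada was at 11.1 CPM in TNF-4, above 6.88 to 7.28 CPM in the others, and the summed level of Ada and Alpi was likewise 11.1 CPM in TNF-4. The PBS group, with 3 libraries, was too small for this criterion.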

How the results depend on the processing

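For the 24 tested members, 320 of 333 values under the alternatives kept their direction and their side of the threshold, 5 lost the call and 8 turned sign, and 17 members kept both throughout. The sign turned only in genes that were not called with all libraries, of which Ace was called higher without PBS-2 (adjusted p = 0.0215): Fabp1 without PBS-2 (0.17), Ace with the replicate block (0.15), without PBS-2 (1.07), without TNF-1 (0.13) and without TNF-2 (0.08), and Mep1b with scaling by total counts (-0.11), with the replicate block (-0.13) and without TNF-4 (-0.16). With all libraries Ace stood at 0.00 ± 0.49 (SE) and Mep1b at 0.08 ± 0.22, so a small shift is enough to turn their sign. Leaving out each library in turn, values ran from -1.30 to 0.17 for Fabp1, from -0.35 to 1.07 for Ace and from -0.16 to 0.24 for Mep1b. Calls were lost for Npc1l1 without PBS-2 and with the block, and for Apoa1 without TNF-1, where no TNF count remained. They were also lost for Slc5a1 with scaling by total counts (0.28) and for Cdhr5 with the block (-0.56, edgeR adjusted p = 0.0511). The cause was not tested. The summed level of the members had a log2 ratio of -0.70 with total counts, compared with -0.54. Leaving out 1 library at a time gave medians of -1.52 (without PBS-1) to -1.12 (without PBS-2), 15 to 21 lower and 3 to 4 higher members, and 7663 to 8625 called genes. Without PBS-1, 29 members passed the filter, so its 21 lower members (beside 27% of all genes tested) and its median are over a larger set than the 24, and each other library left 24. Without TNF-1 no TNF count of Apoa4 remained, so its fitted log2 fold change of -8.93 is not a measured fold. Of the 8 untested members, 6 were called lower without a filter and 7 in the test of DESeq2, each time as lower. In all, 22 of 32 members were lower without a filter (19% of all genes) and 22 of 31 in DESeq2 (23.8%), which gave no adjusted p for Apoa4. Scaling by total counts gave 59.5% of called genes as lower, compared with 50.5%.

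The labels number the replicates but do not say that equal numbers are paired. Deviations of libraries with the same number correlated at -0.398, -0.0473 and -0.227. Libraries with different numbers were not compared, so these values cannot decide whether the numbers pair the libraries. A replicate block gave 7131 called genes, 25% of those tested as lower and 24.8% as higher, with 14 lower and 3 higher of 24 members and a median of -1.20. TNF-4, with no PBS partner, does not enter the contrast there.

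Depth limits the members with few counts, as 1 count was worth 0.056 CPM in TNF-1, and the table does not show in which cells the counts arose.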
